A study of Mus musculus with 4 samples.

Results

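The fibrillar collagen genes examined here were Col1a1, Col1a2, Col3a1, Col5a1, Col5a2, Col5a3 and Col11a1, 7 of 21900 protein-coding genes in the annotation. Every peak of open chromatin whose midpoint lay inside one of these genes or within 50000 bp of it (150000 bp for Col1a2) was taken. These were 377 of 585165 peaks in the knockout, 328 of 433013 in control, 241 of 347438 in rotenone and 273 of 340240 in vehicle. The peaks came from ATAC-seq of C57BL/6 mouse dermal fibroblasts, an assay in which a transposase cuts and tags DNA wherever it is not covered by nucleosomes. The 4 groups were Sod2-/- fibroblasts with a conditional knockout, Sod2+/+ control fibroblasts, Sod2+/+ fibroblasts treated with rotenone at 250 µM, and Sod2+/+ fibroblasts treated with vehicle, with 1 library each. Sod2 encodes the superoxide dismutase of mitochondria, and rotenone blocks respiratory complex I. All samples carry the label 100 days, and what the days count is not given. The labels do not name the promoter or cell type that drives the deletion, how long rotenone was applied or how many mice stand behind a library.

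Fibrillar collagens form the ropes of the dermis. Type I collagen, built from the products of Col1a1 and Col1a2, makes up most of each fibril, and type III collagen from Col3a1 is mixed into it. Type V chains (Col5a1, Col5a2, Col5a3) and the type XI chain Col11a1 are minor components that start fibrils and set their diameter, type XI mainly in cartilage. Dermal fibroblasts are the main source of types I, III and V in skin, and the genes are controlled by their promoters together with elements that can lie far upstream.

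In each library the peaks were ranked by the authors' −log10 p, and the 30000 highest were called strong, so that lists of equal length were compared although the full lists were not. With 1 library per group no difference below has a replicate check, no test was possible, and the intervals cover counting error only. Fold enrichment is a peak's own ratio over local background in its own library. Its median over the 30000 strong peaks was 5.49 in the knockout, 6.78 in control, 5.99 in rotenone and 7.13 in vehicle, so that lower folds in the knockout and in rotenone were the rule across the genome. Among the markers of fibroblasts, 5 of 9 genes in the knockout, 7 in control, 5 in rotenone and 6 in vehicle had a strong peak in the gene or within 1000 bp, among them Vim, Pdgfra, Prrx1, Fbn1 and Dcn in every library. Pdgfrb had such a peak in control and vehicle only, Twist2 in control only, and Thy1 and Lum in no library. Over all protein-coding genes the share with such a peak was 50.6% to 51.9%. The fibroblast share of 55.6% in the knockout and in rotenone was close to it. Keratinocyte genes reached 4 of 6 in the knockout and in control, and 3 of 6 in rotenone and in vehicle, whereas none of the 3 muscle and adipocyte genes had such a peak in any library, so presence of a strong peak did not by itself separate these cell types. Endothelial genes reached 1 of 4 in the knockout, 0 in control, 2 in rotenone and 1 in vehicle, and immune genes 0 of 4 in the knockout, 1 in control, 0 in rotenone and 1 in vehicle. Melanocyte and Schwann cell genes reached 3 of 5 in the knockout, 1 in control, 2 in rotenone and 2 in vehicle, and chondrocyte genes 2 of 4 in every library. The part of other cell types in the results below was not tested.

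The sequence before the transcription start is shown for 3 genes that differed at their start. Col1a2 had a strong start peak in all 4 libraries, Col5a3 in control and vehicle, and Col3a1 in none. The stretches run 5′ to 3′ up to the first transcribed base, from RefSeq on build GRCm38.p6, and capitals mark matches to a CCAAT box (CCAAT), a GC box (GGGCGG) or a TATA box (TATAAA) on either strand. They lie at chr6:4505368-4505617 (Col1a2, forward strand), chr9:20815118-20815317 (Col5a3, reverse strand) and chr1:45311288-45311537 (Col3a1, forward strand).
Col1a2: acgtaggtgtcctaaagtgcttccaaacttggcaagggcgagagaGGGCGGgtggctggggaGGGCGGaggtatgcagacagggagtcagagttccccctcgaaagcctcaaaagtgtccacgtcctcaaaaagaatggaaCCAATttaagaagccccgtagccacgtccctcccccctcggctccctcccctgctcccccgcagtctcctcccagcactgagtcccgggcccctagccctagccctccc
Col5a3: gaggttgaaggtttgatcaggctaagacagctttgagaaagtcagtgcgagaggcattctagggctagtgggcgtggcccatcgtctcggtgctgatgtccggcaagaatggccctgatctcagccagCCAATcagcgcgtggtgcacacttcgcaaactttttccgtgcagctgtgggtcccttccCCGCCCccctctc
Col3a1: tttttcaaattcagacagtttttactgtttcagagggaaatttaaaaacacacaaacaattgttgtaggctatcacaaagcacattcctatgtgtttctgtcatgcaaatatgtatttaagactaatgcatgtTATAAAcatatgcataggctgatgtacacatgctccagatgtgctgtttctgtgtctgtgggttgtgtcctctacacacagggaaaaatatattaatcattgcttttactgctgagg

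In the 250 bases before the start site listed in the sequence table, from which motif positions are counted, GC content was 35.2% at Col3a1, with 0 CpG dinucleotides. It was 62% with 11 CpG at Col1a2, 62.8% with 17 at Col5a3, 62.4% with 7 at Col11a1 and 76.4% with 28 at Col5a1. The median over 32851 promoter windows of the same length was 52.4% and 6 CpG. A GC box was found in 4 of the 5 collagen windows (32.7% of all windows), 2 in each of Col1a2, Col5a1, Col5a3 and Col11a1. A CCAAT box was found in 3 (33.8% of all windows): 109 bases before the start of Col1a2, 122 before that of Col5a3 and 79 before that of Col11a1. At Col5a3 the listed start (20815067) lies inside the gene's outermost end (20815117), where the printed stretch stops. One of its GC boxes, 41 bases before the listed start, is therefore not in the printed stretch. A TATA box was found at Col3a1 only, 117 bases before its start (12.4% of all windows), and the AP-1 letters TGANTCA in 0 of the 5 (6.75% of all windows). Col1a1 and Col5a2 had no entry in the sequence table. These matches describe letters and not bound factors.

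At the gene starts a peak of some strength lay within 1000 bp at all 7 genes in every library, but not all of these peaks were strong. A strong peak lay within 1000 bp of the start at 3 of the 7 genes in the knockout (38.5% of all protein-coding genes with a listed start in that library), 4 in control (38.3%), 4 in rotenone (39.1%) and 4 in vehicle (38.2%). The 2 measures differ: for the collagen genes only the outermost 5′ end was used, and for all genes any listed start. Col1a1 and Col5a2 are not among the genes with a listed start. Col1a2, Col5a2 and Col11a1 had a strong start peak in every library, Col5a3 in control and vehicle, and Col5a1 in rotenone. Col1a1 and Col3a1 had none in any library.

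Around the start of Col1a1 (chromosome 11, 94936224-94953042), which encodes the α1 chain of type I collagen, 2 peaks below the strong list were seen in each library. The first spanned the start itself, with a fold of 2.68 in the knockout, 4.31 in control, 2.91 in rotenone and 5.49 in vehicle. Its ranks were 113609 in the knockout, 46377 in control, 132295 in rotenone and 31340 in vehicle. It was thus outside the 60000 strongest peaks in the knockout and in rotenone, and inside them in control and vehicle. The second lay 797 to 891 bp into the gene, with a fold of 2.9 in the knockout (rank 82071), 4.09 in control (rank 48980), 4.03 in rotenone (rank 42278) and 4.52 in vehicle (rank 47112). Since neither peak was strong in any library, neither could be called lost under the rule used below.

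At Col3a1 (chromosome 1, 45311538-45349706), which encodes type III collagen, the peak just inside the start was weak in all 4 libraries. Its fold was 2.29 in the knockout, 2.9 in control, 2.51 in rotenone and 2.9 in vehicle, and its best rank anywhere was 109911, in control. Type I collagen's other gene, Col1a2 (chromosome 6, 4505618-4541543), had a start peak with a fold of 4.11 in the knockout, 5.32 in control, 5.09 in rotenone and 5.27 in vehicle. These peaks ranked 29815 in the knockout, 26228 in control, 22018 in rotenone and 29904 in vehicle, close to the limit of the strong list in the knockout and vehicle.

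The start of Col5a2 (chromosome 1, 45374331-45503282), an α2 chain of type V collagen, carried a peak with a fold of 4.28 in the knockout, 5.2 in control, 5.24 in rotenone and 8.13 in vehicle. The vehicle value stood apart from the other 3, so the distance between rotenone and vehicle at this peak was no larger than that between vehicle and control. The start peak of Col11a1 (chromosome 3, 114030479-114220756) had a fold of 4.25 in the knockout, 5.81 in control, 5.6 in rotenone and 6.68 in vehicle. That of Col5a3 (chromosome 9, 20770050-20815117) had 4.01 in the knockout, 5.47 in control, 4.19 in rotenone and 5.03 in vehicle. It ranked 32572 in the knockout and 36503 in rotenone, just outside the strong list, against 19920 in control and 26153 in vehicle. At Col5a1 (chromosome 2, 27886381-28039510) the peak 0.1 kb before the start had a fold of 2.82 in the knockout, 4.06 in control, 5.23 in rotenone and 4.82 in vehicle, and was strong in rotenone alone, where it was 111 bp wide.

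Strong peaks at the 7 genes numbered 27 in the knockout, 29 in control, 28 in rotenone and 31 in vehicle. Their median fold was 5.32 in the knockout, 6.36 in control, 5.57 in rotenone and 6.68 in vehicle, a little under the median of all strong peaks in each library. Their median width was 334 bp in the knockout, 428 bp in control, 274 bp in rotenone and 401 bp in vehicle. Over all strong peaks it was 293 bp in the knockout, 376 bp in control, 277 bp in rotenone and 349 bp in vehicle. Col1a2, with its wider window, held the most: 7 in the knockout, 10 in control, 8 in rotenone and 11 in vehicle, beside a median of 6 for all protein-coding genes with the same window in every library.

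**Figure D1:**
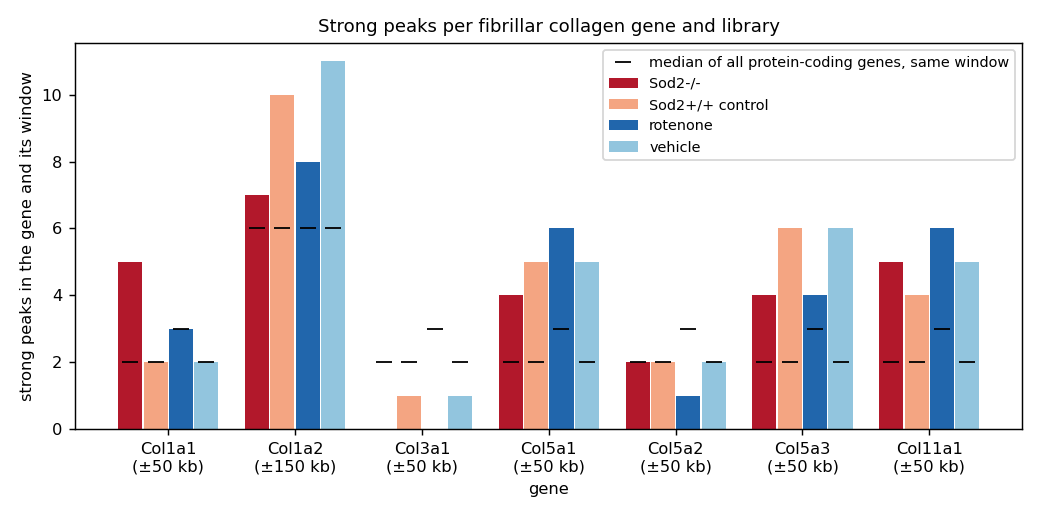
Number of strong peaks (y axis) inside each gene or its window (x axis) in the Sod2-/-, Sod2+/+ control, rotenone and vehicle libraries (bars), with the median over all protein-coding genes for the same window as black dashes. Col1a2 lies at 7 to 11 and above the median of 6, Col1a1 has 5 in the knockout and 2 or 3 elsewhere, and Col3a1 has 0 or 1. Some of the Col1a1 peaks lie nearer to Sgca or Ppp1r9b. A peak in the windows of 2 genes is counted at both, so the bars can exceed the counts in the text.

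Per gene the order differed between libraries. Col1a1 had 5 strong peaks in the knockout, 2 in control, 3 in rotenone and 2 in vehicle. Both control peaks, 52.8 and 54.7 kb from the start, lay nearer to Ppp1r9b than to Col1a1. The peak at 54.7 kb was also strong in the knockout and rotenone, and that at 52.8 kb in vehicle. A further knockout peak, at 22.0 kb, lay nearer to Sgca. Col3a1 had 0 in the knockout, 1 in control, 0 in rotenone and 1 in vehicle, below the median of 2 (3 in rotenone) for all genes with this window. Col5a3, the gene of a less widespread type V chain, had 4 in the knockout, 6 in control, 4 in rotenone and 6 in vehicle. Col5a1 had 4 in the knockout, 5 in control, 6 in rotenone and 5 in vehicle, and Col11a1 had 5 in the knockout, 4 in control, 6 in rotenone and 5 in vehicle. Overlapping strong peaks of the 4 libraries merged into 42 regions at the collagen genes, out of 42457 in the genome: 13 at Col1a2, 8 at Col5a1, 6 each at Col1a1, Col5a3 and Col11a1, 2 at Col5a2 and 1 at Col3a1. Of these, 24 lay upstream of the gene, 11 inside and 7 downstream. For 5 of them a different gene was nearer, namely Ppp1r9b or Sgca at Col1a1 and Rdh8 at Col5a3.

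The upstream flank of Col1a2 held 11 of its 13 regions. The peak with the highest fold at the gene lay, in all 4 libraries, 17.1 kb upstream, at 4488389-4488631. It had a fold of 8.95 in the knockout, 8.73 in control, 9.02 in rotenone and 9.61 in vehicle, and ranked 4122 in the knockout, 9276 in control, 5314 in rotenone and 6942 in vehicle. A pair of neighbouring peaks followed towards the gene. A far-upstream enhancer of mouse Col1a2 that is active in fibroblasts is known at about the distance of this cluster. Whether the deletion was driven by a transgene that carries Col1a2 regulatory sequence is not stated in the labels. Copies of such a transgene would add reads to the knockout values at Col1a2, and this was not tested.

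The 3 peaks of the cluster did not move together. While the 17.1 kb peak differed little between libraries, the neighbour 16.1 kb upstream (4489433-4489641) had a fold of 2.87 in the knockout, 4.99 in control, 3.27 in rotenone and 7.6 in vehicle. It was strong in vehicle alone, where it ranked 15141, and ranked 31987 in control. In rotenone it ranked 74774 and counted as lost, and in the knockout it ranked 81101. The vehicle and control values of this peak also lay far apart. The peak 15.5 kb upstream (4489974-4490197) was strong in all 4 libraries, with a fold of 4.36 in the knockout, 6.36 in control, 4.88 in rotenone and 5.78 in vehicle.

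**Figure D2:**
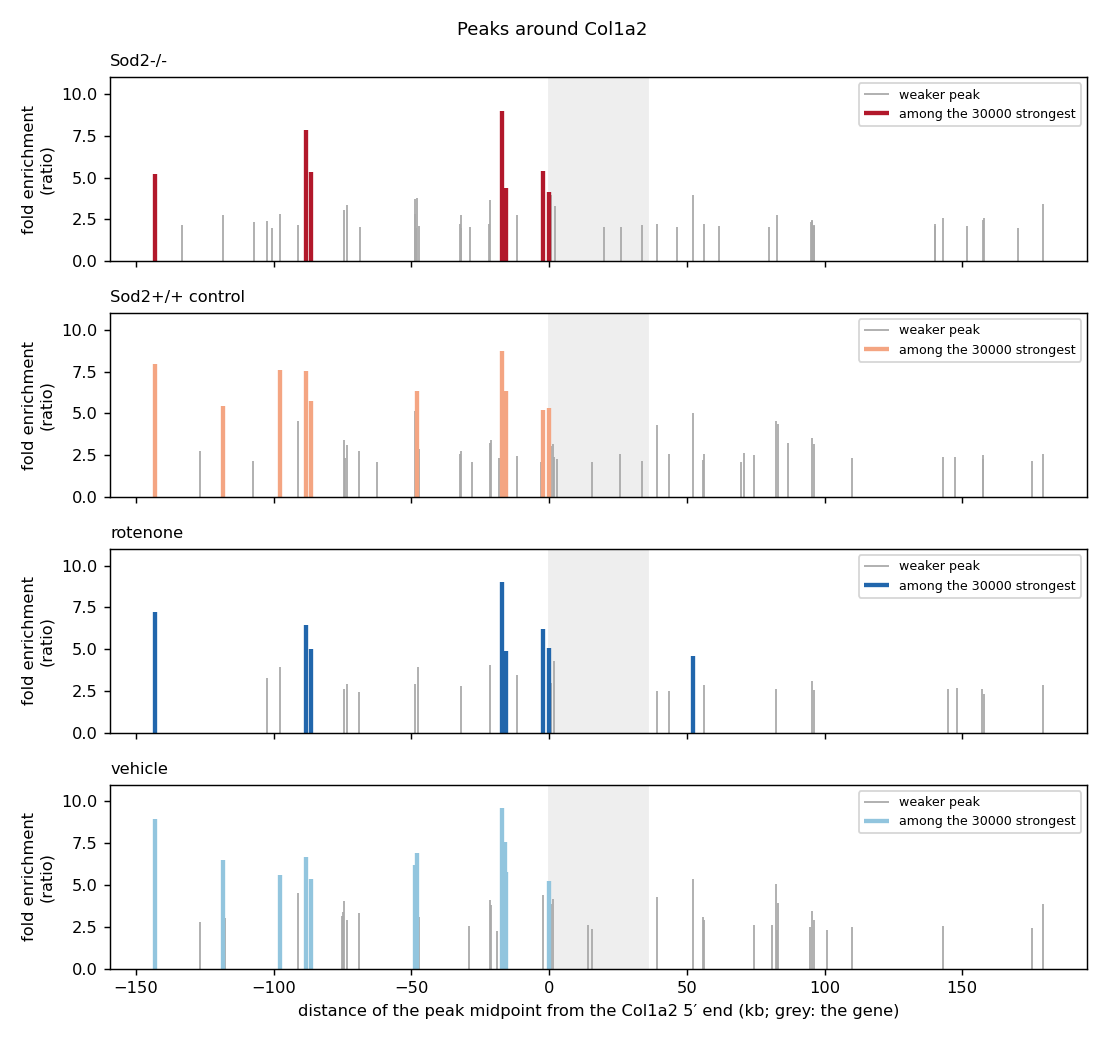
Fold enrichment (y axis, ratio over local background) of every peak in the Col1a2 window against the distance of its midpoint from the 5′ end of the gene (x axis, kb), 1 panel per library, with strong peaks in colour, weaker ones in thin grey lines and the gene shaded. The tall line 17.1 kb upstream is present at 8.73 to 9.61 in all 4 panels, whereas the coloured lines at 118.5, 97.7 and 47.9 kb upstream are found in the control and vehicle panels.

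Farther upstream, a pair of wide regions 88.2 and 86.3 kb from Col1a2 was strong in every library. The first (4417034-4417812) had a fold of 7.84 in the knockout, 7.55 in control, 6.44 in rotenone and 6.68 in vehicle, and the second 5.32 in the knockout, 5.72 in control, 5 in rotenone and 5.38 in vehicle. The outermost region, 143.3 kb upstream, had a fold of 5.23 in the knockout, 7.97 in control, 7.22 in rotenone and 8.95 in vehicle and was also strong throughout. The region 2.3 kb upstream was strong in the knockout (fold 5.39), control (5.22) and rotenone (6.22), and below the list in vehicle (4.42). Here the vehicle library had the lowest fold.

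The Col1a2 regions 118.5, 97.7 and 47.9 kb upstream were strong in control and vehicle and in neither the knockout nor rotenone. The region 97.7 kb upstream had a fold of 2.81 in the knockout, 7.57 in control, 3.96 in rotenone and 5.6 in vehicle, and counted as lost in the knockout, where its best peak ranked 94037. It was 72 bp wide in the knockout, 127 bp in control, 92 bp in rotenone and 134 bp in vehicle. Next to each other, 48.7 and 47.9 kb upstream, lay 2 further regions. The first had a fold of 3.69 in the knockout, 5.17 in control, 2.92 in rotenone and 6.22 in vehicle. It was strong in vehicle alone, with a rank of 30829 in control, and was lost in rotenone, where it ranked 127240. The second had 3.76 in the knockout, 6.35 in control, 3.92 in rotenone and 6.93 in vehicle, and was among the 60000 strongest in all of them.

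The peak 118.5 kb upstream (4387128-4387166) was called lost in both comparisons. It spanned the same 39 bp in control (fold 5.47) and vehicle (fold 6.51), 21 bp in the knockout (fold 2.76), and no rotenone peak of any strength overlapped it. At 39 bp it was the narrowest strong peak at the collagen genes, and it left the list when only peaks of 100 bp or wider were used.

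At Col1a1 the 3 upstream regions and the region 22.0 kb from the start ranked higher in the knockout than in control, whereas the regions 52.8 and 54.7 kb from the start ranked lower. Strong regions lay 22.4, 19.5 and 7.2 kb upstream in the knockout. The one 7.2 kb upstream (94928789-94929197) had a fold of 6.1 in the knockout, 5.11 in control, 5.95 in rotenone and 5.79 in vehicle, with a rank of 11587 in the knockout, 32813 in control, 14726 in rotenone and 27419 in vehicle. The one 19.5 kb upstream had 4.91 in the knockout, 4.69 in control, 4.62 in rotenone and 5.49 in vehicle. The one 22.4 kb upstream had 4.83 in the knockout, 4.68 in control, 3.98 in rotenone and 4.35 in vehicle. The folds of these 2 thus lay close together in the knockout and in control, while a fold of this size ranked higher in the knockout list, whose strong peaks had a lower median.

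The only region gained at the 7 genes lay between Col1a1 and Sgca, a sarcoglycan gene that is nearer to it. At 94958081-94958409, 22.0 kb from the Col1a1 start, it had a fold of 4.42 in the knockout, 3.73 in control, 4.19 in rotenone and 4.41 in vehicle. In control its best peak ranked 61215, just past the 60000 peaks searched. A region 317 bp from Ppp1r9b (94990784-94991007), also in the Col1a1 window, had 4.34 in the knockout, 5.51 in control, 5.52 in rotenone and 4.21 in vehicle. Another, 2234 bp from Ppp1r9b, had 3.71 in the knockout, 5 in control, 4.22 in rotenone and 5.59 in vehicle, and was strong in control and vehicle only.

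Col3a1 and Col5a2 are neighbours on chromosome 1, separated by 24624 bp. A region in this interval, 6413 bp beyond the Col3a1 end (45355962-45356276), had a fold of 4.19 in the knockout, 7.91 in control, 3.58 in rotenone and 8.86 in vehicle. It ranked 31368 in the knockout, 12511 in control, 56810 in rotenone and 10539 in vehicle. It was strong in control and in vehicle only, but the knockout and rotenone peaks were inside the 60000 strongest, so it did not count as lost. It was the only strong region assigned to Col3a1. Upstream of Col5a2, 24.4 kb from its start, a region was strong in the knockout alone, although its folds were nearly equal at 4.29 in the knockout, 4.25 in control, 4.33 in rotenone and 4.46 in vehicle.

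At Col5a1, which encodes the α1 chain present in most type V collagen, 3 regions were strong in all 4 libraries. The region 27.7 kb upstream (27858342-27858973) had a fold of 7.39 in the knockout, 8.83 in control, 7.89 in rotenone and 9.04 in vehicle. The region 147.7 kb into the gene had 6.09 in the knockout, 7.87 in control, 6.31 in rotenone and 8.55 in vehicle. The region 43.4 kb upstream had 5.26 in the knockout, 8.12 in control, 6.97 in rotenone and 6.26 in vehicle.

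Inside Col5a1 a pair of neighbouring regions had its lowest folds in the knockout. The first, 44.3 kb from the start (27930439-27931009), had a fold of 2.68 in the knockout, 5.24 in control, 3.11 in rotenone and 4.79 in vehicle. It was lost in the knockout, where it ranked 106817 and was 252 bp wide against 571 bp in control. In rotenone it ranked 94327, also outside the 60000. It was not strong in vehicle (rank 36423), however, and so could not be called lost in rotenone. The second, 45.8 kb from the start, had a fold of 3.23 in the knockout, 6.25 in control, 5.32 in rotenone and 6.63 in vehicle, with a rank of 58245 in the knockout, just inside the 60000. The region 24.3 kb upstream was lost in rotenone, with a fold of 2.89 in the knockout, 3.46 in control, 2.75 in rotenone and 4.33 in vehicle. It ranked 29510 in vehicle, at the very end of the strong list. In the knockout it ranked 61663, also outside the 60000. It was not strong in control (rank 45463), however, and so could not be called lost in the knockout. A region 21.2 kb upstream was strong in the knockout (fold 4.39, 175 bp) and in rotenone (5.52, 148 bp) and below the list in control (5, 783 bp) and vehicle (5.31, 793 bp).

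At Col5a3 the region 2.3 kb inside the gene (20812393-20813169) was called lost in both comparisons. It had a fold of 2.87 in the knockout, 4.7 in control, 3.27 in rotenone and 5.23 in vehicle, and ranked 83200 in the knockout, 29714 in control, 77657 in rotenone and 24945 in vehicle. Its width was 672 bp in the knockout, 777 bp in control, 642 bp in rotenone and 726 bp in vehicle, so a weaker peak of nearly the same extent remained. The start peak of the same gene was likewise lower in the knockout than in control and lower in rotenone than in vehicle, as given above. The other 4 regions of the locus were strong in all libraries, and the best ranked, 8962 bp beyond the gene's 3′ end at 20760800-20761377, had a fold of 8.41 in the knockout, 9.34 in control, 9.41 in rotenone and 9.5 in vehicle. Of these 4, the 2 upstream regions lay inside Rdh8, a retinol dehydrogenase gene, or 2989 bp past its end.

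Among the 42 regions, the highest fold in control and in vehicle, though not in the knockout or in rotenone, lay in Col11a1. The region 69.1 kb into the gene (114099371-114099821) had 8.53 in the knockout, 12.3 in control, 7.4 in rotenone and 11.5 in vehicle, and ranked 4228 in the knockout, 3091 in control, 9324 in rotenone and 4299 in vehicle. It was strong in every library. The region 2.2 kb upstream had 6.65 in the knockout, 5.63 in control, 4.65 in rotenone and 6.75 in vehicle. The region 8942 bp beyond the gene had 6.19 in the knockout, 7.69 in control, 5.39 in rotenone and 7.35 in vehicle, and both were strong throughout. A region 35.3 kb into the gene had 5.1 in the knockout, 5.04 in control, 5.54 in rotenone and 5.35 in vehicle, and one 1.5 kb into it was strong in rotenone alone (fold 4.98, against 5.15 in vehicle). None of the 6 was called gained or lost in either comparison.

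**Figure D3:**
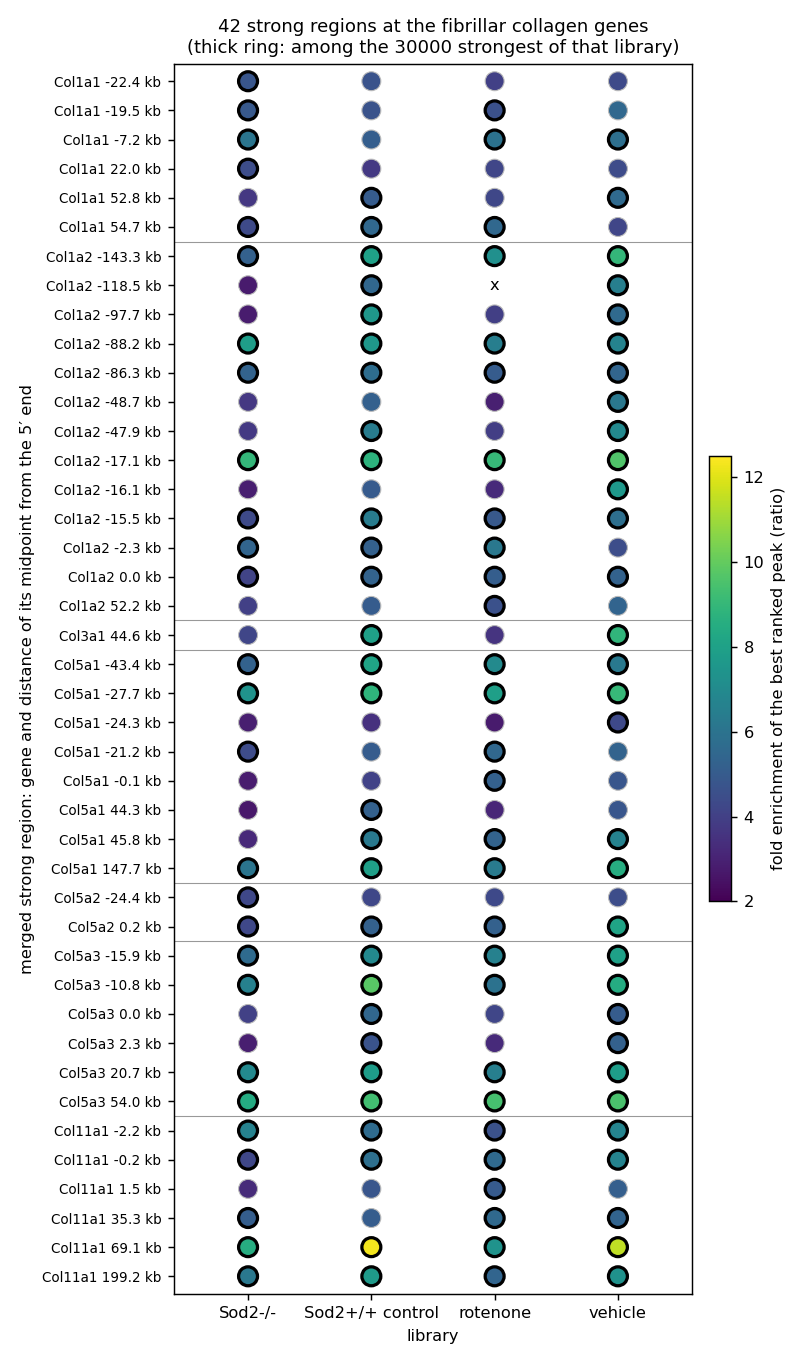
Fold enrichment (colour) of the best ranked peak in each of the 42 merged strong regions (rows, named by gene and distance from its 5′ end in kb) in the 4 libraries (columns), with a thick ring where the region is among the 30000 strongest peaks and an x where there is no peak. The row of Col1a2 17.1 kb upstream is evenly coloured, while the rows of Col3a1 at 44.6 kb and Col5a3 at 2.3 kb have rings in control and vehicle only.

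Taking all regions, 18 of 42 were strong in every library (42.9%, 95% Wilson interval 29.1 to 57.8), beside 46.1% of all merged regions. A peak of any strength was found in all 4 libraries at 41 of the 42, beside 97.7%. At 7 regions (16.7%, interval 8.32 to 30.6, beside 7.52% of all regions) the peak was strong in control and vehicle and in neither the knockout nor rotenone. These were 3 at Col1a2, 2 at Col5a3 and 1 each at Col1a1 and Col3a1. The interval began just above the share of all regions. It treats neighbouring regions of a gene as independent, however, and the genes were chosen with earlier results of these data known. The opposite pattern was seen at 2 regions (4.76%, interval 1.32 to 15.8, beside 6.18%), 1 at Col1a1 and 1 at Col5a1. The fold was lower in the knockout than in control at 32 of 42 regions (beside 75.4% of all), lower in rotenone than in vehicle at 34 of 41 (beside 71.2%) and lower in vehicle than in control at 14 of 42 (beside 38%). The share for the knockout was near that of the genome as a whole. Per gene, the fold was lower in the knockout at 8 of 8 regions of Col5a1, 6 of 6 of Col5a3 and 10 of 13 of Col1a2. It was lower at 4 of 6 of Col11a1, 1 of 2 of Col5a2, 1 of 1 of Col3a1 and 2 of 6 of Col1a1. In rotenone against vehicle, Col5a1 had a lower fold at 5 of 8 regions. These counts are small and neighbouring regions need not be independent, so no difference between genes is drawn from them.

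A strong peak was called gained (in the knockout or rotenone list) or lost (in the list of its control) when no peak among the top 60000 of the other library touched it. In the knockout against control, 1 of 27 strong knockout peaks at the collagen genes was gained (3.7%, interval 0.657 to 18.3, beside 5.33% of all strong peaks). Of 29 strong control peaks, 4 were lost (13.8%, interval 5.5 to 30.6, beside 6.76%): 2 at Col1a2 and 1 each at Col5a1 and Col5a3. In rotenone against vehicle, 0 of 28 were gained (interval 0 to 12.1, beside 6.81%) and 5 of 31 were lost (16.1%, interval 7.09 to 32.6, beside 8.04%): 3 at Col1a2 and 1 each at Col5a1 and Col5a3. In vehicle against control, 0 of 31 were gained (beside 1.03%) and 0 of 29 lost (beside 0.847%). With 60000 strong and 120000 partner peaks, however, this comparison gained 8 of 77 (beside 4.08%).

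Every interval for a gain or loss included the share of all strong peaks, so at this number of peaks the shares could not be told apart from those of the genome. When a partner peak had to cover 50% of a strong peak to count as shared, the losses were 4 of 29 in the knockout, beside 13.2% of all strong peaks, and 6 of 31 in rotenone, beside 14.7%. When any partner peak, however weak, counted as shared, 0 losses remained in the knockout (beside 0.343% of all strong peaks) and 1 in rotenone (beside 0.943%), the 39 bp peak at Col1a2. Gains then numbered 0 in the knockout (beside 0.243%) and 0 in rotenone (beside 0.773%), and vehicle against control gave 0 gains (beside 0.11%) and 0 losses (beside 0.0867%). All other lost regions thus kept a weaker peak.

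**Figure D4:**
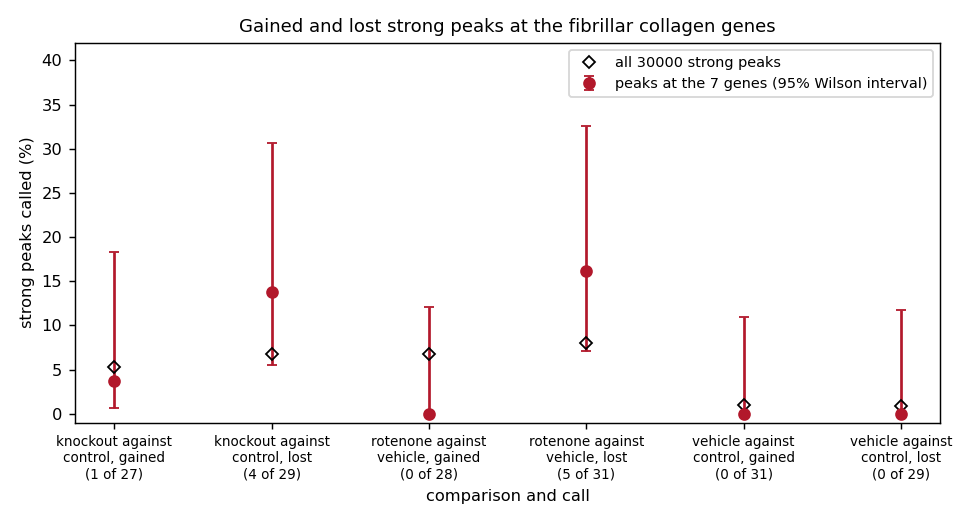
Percentage of strong peaks called gained or lost (y axis) in each comparison (x axis, with counts) for the 7 collagen genes (circles, bars are 95% Wilson intervals) and for all 30000 strong peaks (diamonds). The circles for losses lie at 13.8% in the knockout and 16.1% in rotenone, above the diamonds at 6.76% and 8.04%, and every interval spans its diamond.

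Genes that modify and process fibrillar collagen were set beside them, with peaks counted in the gene or within 50000 bp. The list held 22 genes of hydroxylases, chaperones, propeptide proteinases and lysyl oxidases. Of 100 strong knockout peaks at these genes, 4 were gained (beside 5.33% of all strong peaks). Of 93 strong control peaks, 3 were lost (beside 6.76%). No interval was computed for these small counts, so the shares are only given side by side. The losses were at Pcolce, an enhancer of C-propeptide removal, Plod3, a lysyl hydroxylase gene, and P4hb, which encodes the β subunit of prolyl 4-hydroxylase. The gains were 2 at Plod1 and 1 each at Bmp1 and Lox, which encode a procollagen C-proteinase and a crosslinking oxidase.

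In rotenone 3 of 100 strong peaks at these genes were gained (beside 6.81% of all strong peaks) and 9 of 101 vehicle peaks lost (beside 8.04%). The gains were 1 each at Bmp1, Adamts2 and Pcolce. The losses were 3 at Plod2, the lysyl hydroxylase of collagen telopeptides, 2 at P4hb, 2 at P3h1, a prolyl 3-hydroxylase gene, and 1 each at Plod1 and P4ha2. The Bmp1 gain overlapped the one in the knockout, and the P4hb loss at 120547639-120547739 overlapped the knockout loss there. Of the P4hb and Plod2 losses, 1 each was also called gained in vehicle against control, so at these 2 the control library was low as well. At the other fibrillar collagen genes (Col2a1, Col11a2, Col24a1, Col27a1), 2 of 21 strong peaks were gained (beside 5.33% of all strong peaks) and 2 of 19 lost (beside 6.76%) in the knockout. In rotenone 1 of 25 was gained (beside 6.81%) and 1 of 19 lost (beside 8.04%). The knockout losses were both at Col27a1.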

How the data were processed

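ATAC-seq peak lists of 4 libraries were used, called separately per library. Per the submitters' processing notes, Bowtie2, bedtools, MACS2 and HOMER were used on mm10, while versions, settings, filters and Tn5 shift are not stated there. The deposited columns were read in MACS2 broad peak order: a fold enrichment (a ratio over local background), a −log10 p, a −log10 q and a score that was not used. The lists give no depth, which is therefore unknown, and weaker peaks may depend on it. Starts were converted to 1-based positions. Gene spans came from RefSeq GRCm38.p6, the assembly of mm10. Strand came from the promoter table for 5 of 7 genes, and from general knowledge for Col1a1 and Col5a2. Peaks in 2 windows went to the nearer gene.

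The members and lists were chosen with earlier results of these data known. Strong peaks were the 30000 with the highest −log10 p, ties broken by fold. The regions named are those at gene starts, those called, the 3 best ranked per gene and, chosen after their values were seen, the remaining regions. The overlap code (minimum 1 bp) was checked against brute force. It was also checked on the real lists after the partners of randomly chosen shared peaks had been removed. Alternatives were other list lengths, ranking by fold, narrower windows, a minimum width, 50% coverage, the full partner list and, added after seeing the data, only peaks nearest to a member. Intervals are 95% Wilson intervals (scipy 1.17.1). Tables were handled with pandas 2.3.3 and numpy 2.4.6 under Python 3.11.15, and plots drawn with matplotlib 3.10.9.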

Additional observations from a re-analysis of the deposited data

How the results depend on the processing

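With 15000 strong and 30000 partner peaks, the collagen genes held 12 strong peaks in the knockout, 13 in control, 12 in rotenone and 12 in vehicle. The knockout then lost 2 of 13 (beside 5.58% of all strong peaks), and rotenone gained 1 of 12 (beside 5.52%) and lost 1 of 12 (beside 6.09%). With 60000 and 120000 they held 58 in the knockout, 70 in control, 60 in rotenone and 77 in vehicle. The knockout gained 6 of 58 (beside 12.1%) and lost 11 of 70 (beside 14%). Rotenone gained 9 of 60 (beside 15.6%) and lost 18 of 77 (beside 16.5%). Vehicle against control gained 8 of 77 (beside 4.08%) and lost 2 of 70 (beside 3.45%). These gains lay above the share of all strong peaks, although the 2 libraries differ in neither Sod2 nor rotenone. Within 10000 bp of the genes they held 13 in the knockout and 15 in each other library. The knockout lost 2 of 15 (beside 6.76% of all strong peaks) and rotenone 1 of 15 (beside 8.04%). Ranked by fold, the knockout gained 0 (beside 5.86%) and vehicle against control lost 1 (beside 1.07%). The knockout gained 0 with peaks of 100 bp or wider (beside 4.24%), and 0 with only peaks nearest to a member (beside 5.33%). With the full partner list the knockout gained 0 (beside 0.243%) and lost 0 (beside 0.343%), and rotenone lost 1 (beside 0.943%). The causes were not tested, beyond shorter lists or windows holding fewer peaks. All other alternative counts at the collagen genes stayed within 1.5 times, but similar totals did not always hold the same regions. With peaks of 100 bp or wider, rotenone lost 4 regions (beside 7.45% of all strong peaks). Of the 5 in the main setting, only those 48.7 kb upstream of Col1a2 and 24.3 kb upstream of Col5a1 were still called. The newly called regions are not named here. With 50% of a peak covered, however, the share lost among all strong peaks was 13.2% in the knockout and 14.7% in rotenone, against 6.76% and 8.04% with 1 bp, so the 4 of 29 lost in the knockout then lay near the share of all. The gain near Col1a1 was still called in 2 of 8 alternatives, and each lost region in 3 to 5 of 8. These tallies do not measure robustness, because several outcomes were fixed in advance. Demanding 50% coverage could not remove a call, and the full partner list could not add any. The 10000 bp window dropped every region farther away, and the list of 15000 dropped every region ranked past it. In rotenone, the losses at Col1a2 16.1 kb upstream and at Col5a3 were no longer called with peaks of 100 bp or wider, and those at Col5a3 and at Col5a1 24.3 kb upstream no longer when ranked by fold. The knockout loss at Col5a3 was also no longer called when ranked by fold. No paired analysis was possible because each group has 1 library, and for the same reason no replicate could be left out.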
